A study of Drosophila melanogaster with 8 samples.

Results

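The pickpocket family was read in RNA-seq libraries of whole adult *Drosophila* testes. Members were taken by name, as every gene whose current FlyBase symbol is *ppk*, *rpk* or *ppk* followed by a number, and matched by FlyBase identifier. The symbol table held 30 such genes. Of these, 29 were in the count table of 14256 genes, and 19 also had a value in the authors' cRPKM table. *ppk18* had no matching identifier and was not analysed here. *Nach*, also called *ppk4*, belongs to the same channel family but carries another symbol. It held 6 and 7 counts in *Tj-Gal4*, against 8 and 1 counts in libraries labelled *Tj>E(Pc) shRNA*.

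Pickpocket proteins are the fly members of the degenerin and epithelial sodium channel superfamily. Subunits of this family cross the membrane at both ends of the protein, carry a large extracellular domain, and assemble as trimers that pass sodium and are blocked by amiloride. In the fly they are known mainly from sensory neurons, where they serve touch and pain, the taste of water and salt and the sensing of pheromones, and from the epithelium of the airways. *rpk*, ripped pocket, is the member known from the gonads and the early embryo.

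The libraries came from adult males labelled 5 days old. Both *Tj-Gal4* libraries carry the GAL4 driver of the *traffic jam* gene and no shRNA transgene by their label. By the paper, this driver acts in the cyst lineage and in the other somatic cells of the gonad, hub cells included. Both *Tj>E(Pc) shRNA* libraries are labelled *Tj-Gal4/+; UAS-E(Pc) shRNA/+*, so the driver is in all 4 libraries. The control is written as *Tj-Gal4* alone, without its number of driver copies. Driver copies and stock background may therefore differ between genotypes, and cannot be told apart from the shRNA here. The study's methods give 1 pair of testes as the source of a library, so germ cells, cyst cells, hub, sheath and attached tissue were read together, and the knockdown was aimed at only some of these cells. Fewer cells of a type and less RNA per cell cannot be told apart in such libraries. Another 4 samples, made by ChIP-seq, were not analysed here.

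Total counts ran from 3307767 to 6251181 per library, the largest in the library labelled *Tj>E(Pc) shRNA* 1. *E(Pc)*, the targeted gene, held 854 and 1187 counts in *Tj-Gal4*, against 2685 and 1235 counts in libraries labelled *Tj>E(Pc) shRNA*, for a log2 fold change of 0.44 (SE 0.18, adjusted p = 0.083 from edgeR). It was not lower in the latter. The knockdown was aimed at only some of the cells read, so whole-testis counts of *E(Pc)* cannot check it. Every direction given here rests on the labels. Other genes did differ between the labelled genotypes. The cyst stem cell gene *zfh1* was called higher in libraries labelled *Tj>E(Pc) shRNA* (log2 fold change 0.65, adjusted p = 0.0238 from edgeR), as were the early germline genes *nanos*, *bam* and *zpg* (1.47, 1.62 and 2.05). The 5 cyst lineage markers were mixed. Beside *zfh1*, *so* was called lower (-1.38, adjusted p = 0.00751 from edgeR), and *tj*, *eya* and *chinmo* were not called (0.21, 0.01 and 0.49). The 5 spermatid markers summed to 902.8 and 692.3 CPM (counts relative to the TMM-scaled library size) in *Tj-Gal4* and 453.1 and 709.8 CPM in libraries labelled *Tj>E(Pc) shRNA*, and sums over 3 early germline markers were 49.7 and 51.2 CPM against 153.5 and 167.7 CPM. The part of such shifts in the values below was not tested. Of 4 accessory gland markers, *SP* and *Acp26Aa* held at most 4 counts in any library, while *Acp36DE* and *prd* held 139 to 458. The ratio of replicates also changed with coverage. Among 1471 tested genes under 0.02 counts per base, the median log2 ratio between libraries labelled *Tj>E(Pc) shRNA* 1 and 2 was 0.40 after scaling, and that of *Tj-Gal4* 1 and 2 was -0.17. Among 2318 tested genes over 0.35 counts per base, these medians were -0.33 and 0.17. Most pickpocket genes are thinly covered, since only 6 of the 14 members tested lay above 0.02 counts per base on average.

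The question for each member was first whether the testis libraries held its RNA at all. A gene was taken as detected where both libraries of a genotype held more than 3 counts, 3 being the upper limit that a count of 0 allows. By this rule 19 of 29 members were detected, which is 65.5%, against 86.7% of the protein-coding genes of the table and 83.9% of all its genes. Of the 19, 13 were detected in both genotypes, *ppk11* and *ppk22* in *Tj-Gal4* only, and *ppk8*, *ppk9*, *ppk21* and *ppk29* only where the label was *Tj>E(Pc) shRNA*. Detection in 1 genotype is not by itself a difference between genotypes, since counts this low straddle the limit.

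Of the 10 members not detected, 8 never passed 3 counts in any library. These were *ppk7*, *ppk14*, *ppk15*, *ppk17*, *ppk23*, *ppk24*, *ppk26* and *ppk27*. *ppk26*, the partner of *ppk* in pain-sensing neurons, held 1, 1, 1 and 2 counts, and *ppk23*, which is needed in gustatory neurons for the sensing of pheromones, held 1, 0, 1 and 0 counts, in the order *Tj-Gal4* 1 and 2 and labelled *Tj>E(Pc) shRNA* 1 and 2. Both *ppk12* (3, 6, 8 and 2 counts in the same order) and *ppk25* (2, 10, 13 and 1 counts) passed 3 counts only in the second *Tj-Gal4* library and in the first labelled *Tj>E(Pc) shRNA* library, which are the deeper library of each genotype. A count of 3 corresponds to between 0.4532 and 0.9621 CPM in these libraries, and a lower level would not be detectable at this depth.

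**Figure D1:**
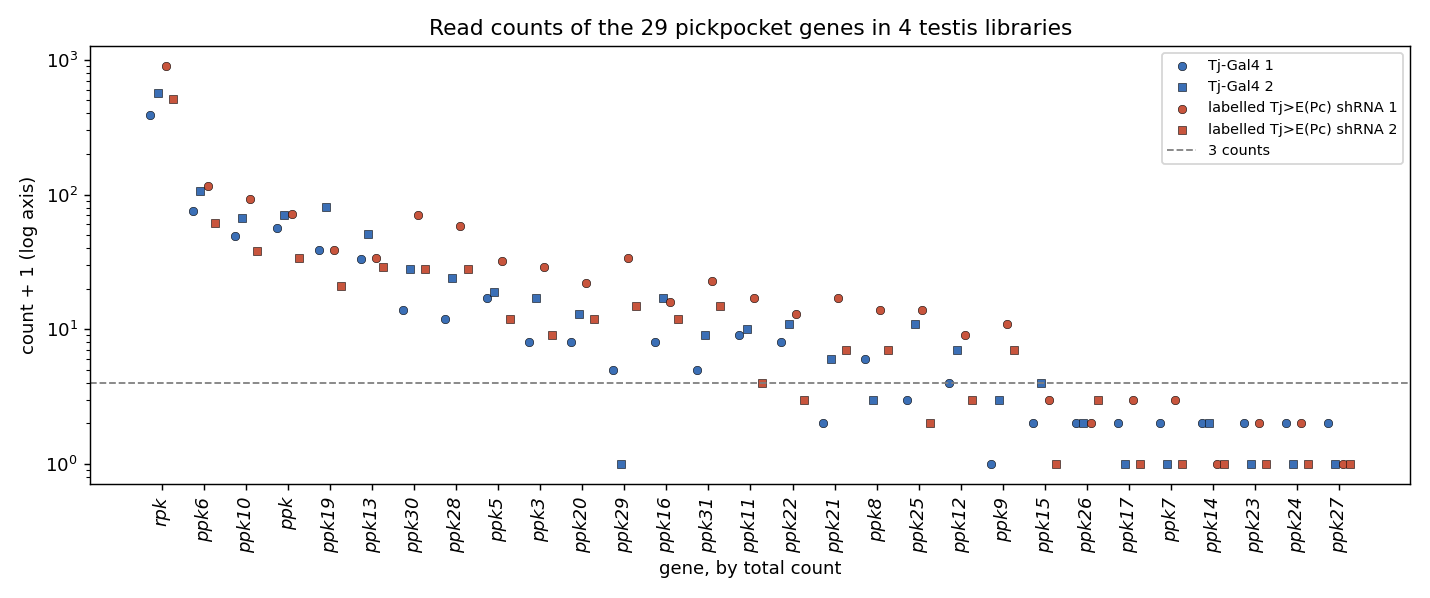
Read counts of the 29 pickpocket genes of the count table, ordered by total count, in each of 4 libraries (vertical log axis, count + 1; blue, *Tj-Gal4*; red, labelled *Tj>E(Pc) shRNA*; circles, replicate 1; squares, replicate 2; dashed line, 3 counts). *rpk* stands alone at 388 to 902 counts, and 8 genes stay at or under the dashed line in every library.

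*rpk* was by far the most abundant member on every scale. It held 388 and 569 counts in *Tj-Gal4*, against 902 and 507 in libraries labelled *Tj>E(Pc) shRNA*. Its share of all pickpocket counts was 52.5% (95% Wilson interval 48.9 to 56.1) and 51.3% (48.4 to 54.2) in *Tj-Gal4*, and 55.5% (53.1 to 57.9) and 60.7% (57.3 to 63.9) in libraries labelled *Tj>E(Pc) shRNA*. These intervals, like all others on counts here, take in counting error alone, as if reads were independent, and leave out the spread between libraries. The reads carry no molecular identifiers and cannot be taken as independent molecules, so even the counting error may be understated. Both labelled knockdown libraries gave a higher share than both controls.

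Levels of different genes were compared as cRPKM, which is per length of the merged transcript. In *Tj-Gal4* the order began with *rpk* at 45.01 and 47.84 cRPKM, in the mean higher than 69.3% of the genes with a cRPKM value. *ppk6* followed at 14.6 ± 0.248, then *ppk10* at 9.85 ± 0.0307, *ppk19* at 9.44 ± 2.85, *ppk13* at 7.42 ± 0.671 and *ppk* at 6.39 ± 0.448 cRPKM (SD, n = 2 each). The ranges of *ppk10* and *ppk19* overlapped, as did those of *ppk19* and *ppk13*, so these neighbours did not differ beyond their spread, while those of *ppk13* and *ppk* did not overlap. *rpk* and *ppk6* stood clear of the genes below them in both libraries.

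A gap separated these 6 genes from the rest. *ppk5* (2.58 to 3.21 cRPKM), *ppk30* (2.22 to 3.39) and *ppk28* (1.81 to 2.79) overlapped in *Tj-Gal4*. The other 10 genes with a cRPKM value ran from *ppk16* at 1.77 ± 0.641 down to *ppk29* at 0.338 ± 0.478 cRPKM (SD, n = 2 each), and all of them lay below 90% of the genes of that table in the mean. Ranges of neighbours in that lower stretch mostly overlapped.

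In libraries labelled *Tj>E(Pc) shRNA* the first 3 places were held by the same genes, *rpk* at 49.7 ± 1.09, *ppk6* at 10.1 ± 0.271 and *ppk10* at 7.76 ± 1.82 cRPKM (SD, n = 2 each). Below them *ppk30* (3.90 to 5.73 cRPKM), *ppk13* (3.13 to 5.27), *ppk28* (3.80 to 4.44) and *ppk* (3.43 to 4.10) overlapped in a chain. *ppk19*, which held place 4 in *Tj-Gal4*, was in place 8 at 3.34 to 3.47 cRPKM. Its range overlapped those of *ppk13* and *ppk*, so it did not differ from these beyond their spread.

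**Figure D2:**
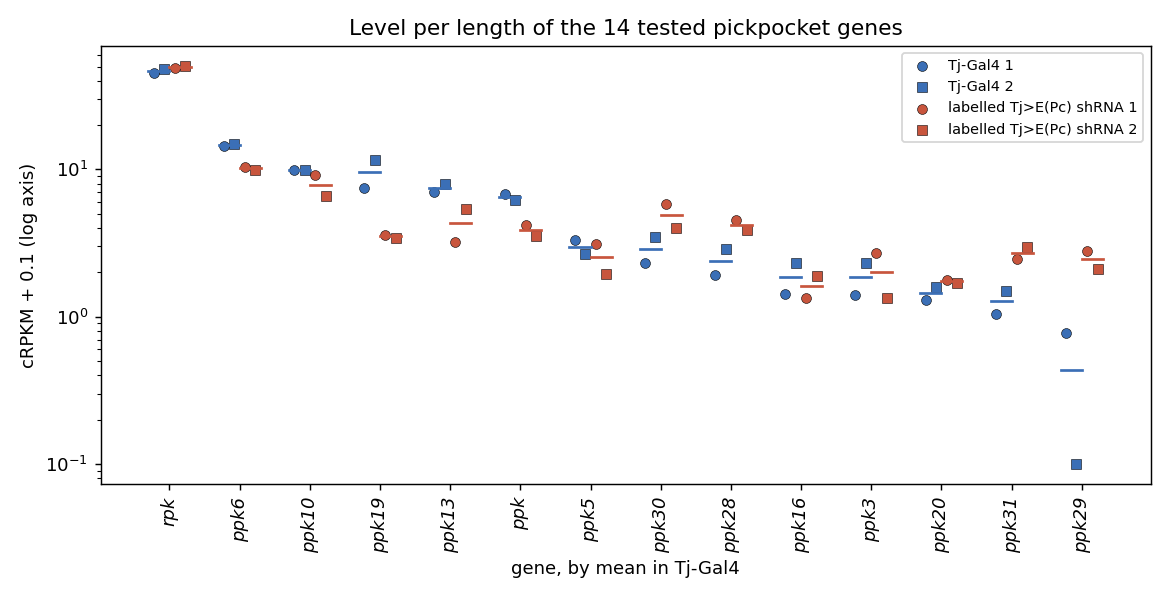
cRPKM + 0.1 (vertical log axis) of the 14 members that passed the filter on low counts, ordered by their mean in *Tj-Gal4*; points are libraries (blue, *Tj-Gal4*, red, labelled *Tj>E(Pc) shRNA*, circles, replicate 1, squares, replicate 2) and bars are the means of 2 libraries. The red points lie below the blue ones for *ppk6*, *ppk10*, *ppk19*, *ppk13* and *ppk*, above them for *rpk*, *ppk30*, *ppk28*, *ppk20*, *ppk31* and *ppk29*, and overlap them for the other 3.

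The comparison of genotypes asked which members differed in testes of flies labelled as carrying the shRNA transgene under the *Tj-Gal4* driver. It was made with edgeR's quasi-likelihood test on counts scaled by the TMM method, over the 11163 genes that passed edgeR's filter on low counts, and a gene was called where its adjusted p (Benjamini-Hochberg over all genes tested) was under 0.05. Of the 29 members, 14 passed that filter. The test called *ppk29* higher and *ppk19* and *ppk* lower in libraries labelled *Tj>E(Pc) shRNA*, and did not call the other 11. Over all genes tested, 22.5% were called higher and 11.4% lower, 33.9% in all. Of the 14 members 21.4% were called, a share below that background, with the 1 higher call under the share of all genes called higher and the 2 lower calls slightly above the share called lower. Among the 2801 genes whose mean counts lay in the range of the tested members other than *rpk*, 17.9% were called higher and 8.96% lower. At an unadjusted p under 0.05 there were 3 members higher and 4 lower, against 47.3% of all genes in either direction. With a trend on library depth removed, 2854 of all genes were called higher and 2312 lower, in place of 2517 and 1272.

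After TMM scaling, the 2 labelled knockdown libraries were higher than either control in 6 tested members, *rpk*, *ppk20*, *ppk28*, *ppk29*, *ppk30* and *ppk31*, and lower than either in 5, *ppk*, *ppk6*, *ppk10*, *ppk13* and *ppk19*. The genotypes overlapped in *ppk3*, *ppk5* and *ppk16*. Over all genes tested, the share above was 38.9% and the share below 33.8%. The median log2 fold change of the 14 members was -0.06, and that of all genes tested was 0.00. Among genes with mean counts in the range of the tested members other than *rpk*, it was 0.08. *ppk29* and *ppk31* passed the filter only through libraries labelled *Tj>E(Pc) shRNA*, so they had to be higher there, and no count over these 14 genes is evidence about the family.

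**Figure D3:**
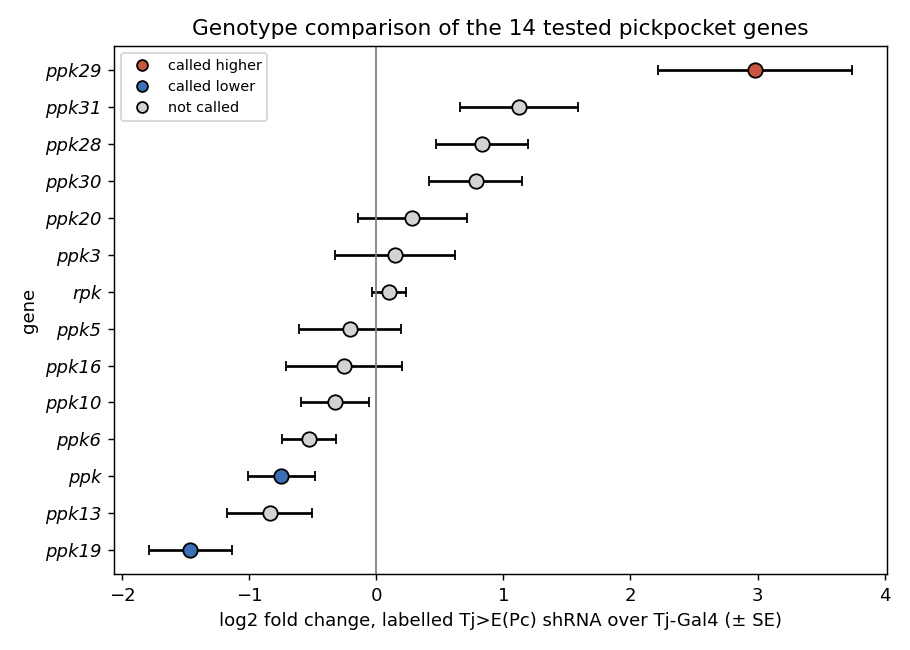
Log2 fold change (horizontal axis, labelled *Tj>E(Pc) shRNA* over *Tj-Gal4*, n = 2 each, bars ± SE from edgeR) of the 14 tested members (red, called higher, blue, called lower, grey, not called). Values run from -1.46 for *ppk19* to 2.98 for *ppk29*, and *rpk* has the smallest standard error.

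The most abundant member was not called. *rpk* (FBgn0022981, chromosome 3R) had 124.4 and 132.4 CPM in *Tj-Gal4* and 136.3 and 138.9 CPM in libraries labelled *Tj>E(Pc) shRNA*, which is a log2 fold change of 0.10 (SE 0.13, adjusted p = 0.582 by the edgeR test). The genotypes did not overlap, but the distance between them was smaller than the standard error of the fit. Leaving out each library in turn gave between 0.04 and 0.15. *rpk* is also the member with the densest coverage, up to 0.349 counts per base. With counts converted from occupied positions to reads, an alternative chosen only once the data had been seen, the value was 0.14. That conversion assumes that only 1 read was kept per position, which the study's methods state for ChIP-seq but not for RNA-seq. The antisense gene *asRNA:CR44155* overlaps *rpk* in RefSeq. In all, 11 of the 29 members, among them 6 of the 14 tested, overlap another gene there.

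*ppk19* gave the largest fall. It acts in larval salt taste and is one of the members known from the airways. This gene (FBgn0039679 on chromosome 3R) had 38 and 80 counts in *Tj-Gal4*, against 38 and 20 counts in libraries labelled *Tj>E(Pc) shRNA*. Scaled for depth, this was 12.2 and 18.6 CPM against 5.74 and 5.48 CPM. The labelled knockdown libraries were under both controls, at nearly the same level, while the controls were spread. The log2 fold change was -1.46 (SE 0.32, adjusted p = 0.00753 from the same edgeR test), which is 2.76-fold lower. On the cRPKM scale the means were 9.44 ± 2.85 and 3.41 ± 0.0929 (SD, n = 2 each). On log2(cRPKM + 1), the exact permutation test (two-sided) gave p = 0.333, the smallest that 2 libraries against 2 allow.

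The call of *ppk19* held with DESeq2 (log2 fold change -1.52, adjusted p = 0.00666). It was lost in edgeR without *Tj-Gal4* replicate 2, where the log2 fold change was -1.11. Fewer of all genes were called in that fit too, so the loss is not particular to *ppk19*. Over 14 settings, not counting those added after the data were seen, its adjusted p ranged from 7.44e-05 to 0.117. In the RefSeq annotation *ppk19* overlaps *Bub3*, a spindle checkpoint gene, and the counting is not stated to use strand, so reads of both genes could be shared. *Bub3* moved the other way, with 172 and 234 counts in *Tj-Gal4*, against 468 and 284 in libraries labelled *Tj>E(Pc) shRNA* (log2 fold change 0.43, SE 0.13, adjusted p = 0.0302 from edgeR).

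In earlier work on the fly airways, *ppk19* was named together with *ppk7*, *ppk10*, *ppk11*, *ppk12*, *ppk13*, *ppk14* and *ppk28*, genes of the tracheal epithelium that clears liquid from the tubes. Of these 8 genes, 5 were detected in testes and 4 were tested, and *ppk19* was the 1 gene called. Over all genes tested 33.9% were called, and 86.7% of protein-coding genes were detected, so neither count stands above the background. *ppk13* held 32 and 50 counts in *Tj-Gal4*, against 33 and 28 in libraries labelled *Tj>E(Pc) shRNA*, or 10.9 ± 0.970 and 6.33 ± 1.90 CPM (SD, n = 2 each). Its log2 fold change of -0.84 (SE 0.34) was not called (adjusted p = 0.0755 from edgeR). It was called with the depth trend removed (-1.01, adjusted p = 0.0367) and without the library labelled *Tj>E(Pc) shRNA* 2 (-1.14, adjusted p = 0.00771), and leaving out each library in turn gave -1.14 to -0.52. *ppk10* held 48 and 66 counts in *Tj-Gal4*, against 92 and 37 in libraries labelled *Tj>E(Pc) shRNA*, and its log2 fold change of -0.33 (SE 0.27) was not called either.

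*ppk28* is the water taste receptor, and its values went the other way from these. The gene (FBgn0030795 on chromosome X) had 11 and 23 counts in *Tj-Gal4*, against 57 and 27 in libraries labelled *Tj>E(Pc) shRNA*, or 3.53 and 5.35 CPM against 8.61 and 7.40 CPM. The groups did not overlap, and the log2 fold change of 0.83 (SE 0.36) had an adjusted p of 0.0978 from edgeR, which is not a call. *asRNA:CR44053* overlaps this gene. *ppk11*, which acts with *ppk19* in salt taste and with *ppk16* at the motor nerve terminal, held 8 and 9 counts in *Tj-Gal4*, against 16 and 3 in libraries labelled *Tj>E(Pc) shRNA*. It was too low to be tested. *ppk16* held 7 and 16 counts and 15 and 11 counts, with overlapping levels and a log2 fold change of -0.25 (SE 0.46). RefSeq places *ppk11* and *ppk16* over the same stretch of the genome, so the split of reads between them is uncertain.

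Markers of the airways were read beside these genes. Of 4 tracheal markers listed, 3 were in the table. Of these, *verm*, a chitin deacetylase gene, was called lower (log2 fold change -0.77, adjusted p = 0.0197 from edgeR), and its relative *serp* and the transcription factor gene *trh* were not called. All 3 were lower in the fitted value. Their summed level was 98.1 and 119.8 CPM in *Tj-Gal4* and 85.5 and 55.1 CPM in libraries labelled *Tj>E(Pc) shRNA*, and no marker was at 0 in a library. Whether the amount of airway tissue on the dissected testes had a part in the values of *ppk19*, *ppk13* and *ppk10* was not tested.

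*ppk*, the founding member, is known from the larval sensory neurons that respond to harsh touch, and *ppk26* from the same cells. *ppk* (FBgn0020258, chromosome 2L) held 55 and 69 counts in *Tj-Gal4*, against 71 and 33 in libraries labelled *Tj>E(Pc) shRNA*. Scaled for depth, these were 17.6 and 16.1 CPM against 10.7 and 9.04 CPM, with the labelled knockdown libraries the lower ones and no overlap. The log2 fold change was -0.75 (SE 0.26), and its adjusted p of 0.0496 from edgeR was just under the threshold.

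DESeq2 did not call *ppk* (adjusted p = 0.109, log2 fold change -0.81), and edgeR did not without either *Tj-Gal4* replicate (-0.71 and -0.82, adjusted p = 0.26 and 0.16 from edgeR). A replicate block ended the call as well (-0.77, adjusted p = 0.0912 from edgeR), as did upper-quartile scaling, library size alone and both limma fits. The gene was called in 6 of 14 such settings. Its adjusted p ranged from 0.0115 to 0.26, and the direction was kept in each. No gene overlaps *ppk* in the RefSeq annotation. With *ppk26* at 2 counts or fewer in every library, RNA of *ppk* was read here with next to no reads of its known partner.

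Neuronal markers were mixed. Of 5 in the table, 4 were tested. The synaptic vesicle gene *nSyb* (log2 fold change -1.90, adjusted p = 7.47e-04 from edgeR) and the active zone gene *brp* (-1.03, adjusted p = 0.00537) were called lower, the microtubule-binding protein gene *futsch* was called higher (2.04, adjusted p = 0.00336), and *elav* was not called. *Syt1* held between 4 and 18 counts. The summed level of the 5 was 121.5 and 141.5 CPM in *Tj-Gal4* and 104.5 and 64.7 CPM in libraries labelled *Tj>E(Pc) shRNA*, with at most 3 counts for the glial marker *repo*. The part of nerve tissue in the value of *ppk* was not tested.

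**Figure D4:**
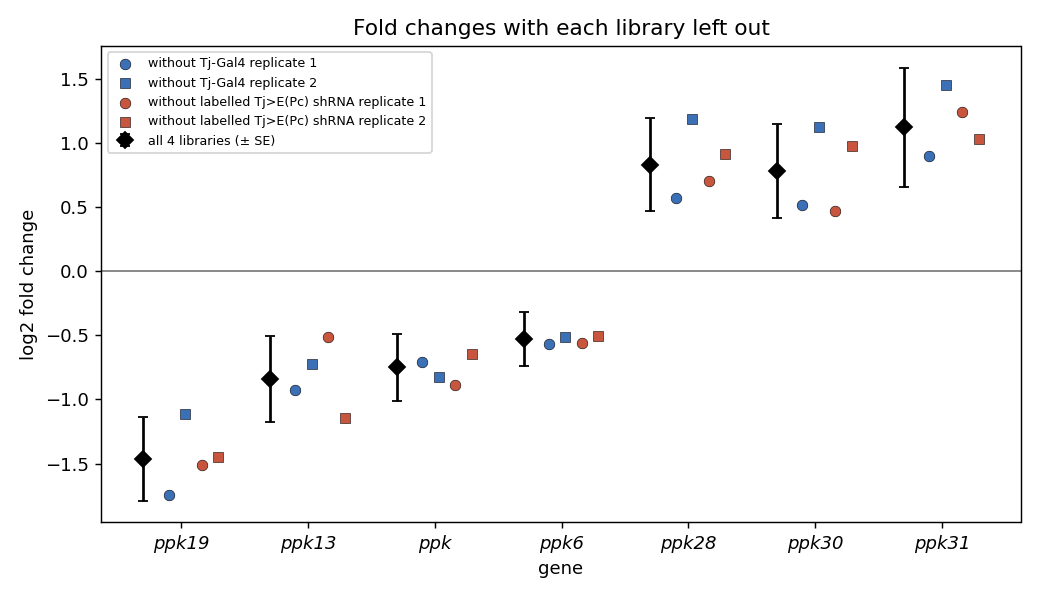
Log2 fold change (vertical axis) of 7 tested members with all 4 libraries (diamonds, ± SE from edgeR) and with 1 library left out (blue, a *Tj-Gal4* library, red, a labelled *Tj>E(Pc) shRNA* library, circles, replicate 1, squares, replicate 2). Every point keeps the sign of its diamond, and *ppk19* runs from -1.74 to -1.11 and *ppk6* from -0.57 to -0.50.

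Of the pheromone genes, *ppk23* and *ppk25* were not detected and *ppk29* was called higher. *ppk29* (FBgn0034965 on chromosome 2R) is needed with the other two in gustatory neurons of the legs for courtship. It held 4 and 0 counts in *Tj-Gal4*, against 33 and 14 in libraries labelled *Tj>E(Pc) shRNA*, or 1.28 and 0 CPM against 4.99 and 3.84 CPM. The fitted log2 fold change was 2.98 (SE 0.76, adjusted p = 0.0148 by the edgeR test), and DESeq2 gave 2.88 (adjusted p = 0.0337). The ratio of summed counts per effective library size was 8.48, with an exact 95% interval of 3.10 to 32.4 on counting error. *ppk29* passed the filter only through libraries labelled *Tj>E(Pc) shRNA*, so it had to be higher there. The tests and the interval are therefore no independent evidence of its direction.

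The size of this rise depends on *Tj-Gal4* replicate 2, which held no read. Without that library the log2 fold change was 1.78 with an adjusted p of 0.15 from edgeR, and without *Tj-Gal4* replicate 1 it was 7.45, a value set by a control of 0 counts. The level is low, 2.35 ± 0.471 cRPKM (SD, n = 2) in libraries labelled *Tj>E(Pc) shRNA*.

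*ppk29* lies over *sei* and *CG13563* in the RefSeq annotation, and all 3 were called higher. *sei*, a potassium channel gene whose transcript is known to be complementary to that of *ppk29* at the end, held 42 and 76 counts in *Tj-Gal4*, against 248 and 107 in libraries labelled *Tj>E(Pc) shRNA* (log2 fold change 1.10, SE 0.23, adjusted p = 0.00543 from edgeR). *CG13563* held 2 and 5 counts in *Tj-Gal4*, and 33 and 14 in libraries labelled *Tj>E(Pc) shRNA*, the same numbers as *ppk29* in both (log2 fold change 2.23, SE 0.52, adjusted p = 0.00929 from edgeR). Like *ppk29*, *CG13563* passed the filter only through the latter libraries and had to be higher there, so its call is no independent evidence of direction. By the study's methods a read over more than 1 gene was divided between them. Reads of these overlapping genes cannot be told apart here, so the call of *ppk29* is uncertain as a call of that gene.

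No role is given here for the members that follow. *ppk6* (FBgn0034489 on chromosome 2R), the member with the highest level after *rpk*, held 75 and 106 counts in *Tj-Gal4*, against 114 and 60 in libraries labelled *Tj>E(Pc) shRNA*. Replicates of this gene were close, at 24.1 and 24.7 CPM against 17.2 and 16.4 CPM, and the genotypes did not overlap. The log2 fold change of -0.53 (SE 0.21) was not called (adjusted p = 0.0728 from edgeR), and it was called with the depth trend removed (-0.64, adjusted p = 0.0192).

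*ppk31* held 4 and 8 counts in *Tj-Gal4*, against 22 and 14 in libraries labelled *Tj>E(Pc) shRNA*, for a log2 fold change of 1.12 (SE 0.47) that was not called (adjusted p = 0.0844 from edgeR). This gene too passed the filter only through the latter libraries, and it overlaps *CG34293*, which held 38 to 108 counts and was not called. *ppk3* (7 and 16 counts, then 28 and 8 counts) and *ppk5* (16 and 18 counts, then 31 and 11 counts) overlapped between genotypes, with log2 fold changes of 0.14 (SE 0.47) and -0.21 (SE 0.40). The direction of *ppk3*, *ppk5* and *ppk16* turned when a library was left out, so none is given for them.

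On chromosome 3R, 4 members lie next to each other in the RefSeq annotation, in the order *ppk21*, *ppk20*, *ppk30* and *ppk19*, with the odorant-binding protein gene *Obp99a* between *ppk30* and *ppk19*. Their values did not go together. *ppk30* held 13 and 27 counts in *Tj-Gal4*, against 70 and 27 in libraries labelled *Tj>E(Pc) shRNA*, or 4.17 and 6.28 CPM against 10.6 and 7.40 CPM, and its log2 fold change of 0.78 (SE 0.36) was not called (adjusted p = 0.116 from edgeR). *ppk20* held 7 and 12 counts, then 21 and 11 counts, for a log2 fold change of 0.28 (SE 0.43).

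*ppk21* held 1 and 5 counts in *Tj-Gal4*, against 16 and 6 in libraries labelled *Tj>E(Pc) shRNA*, and was too low to be tested. Since a ratio of 2 genes within a library does not depend on scaling, *ppk30* was also set against *ppk19*, a pair chosen after their values were seen, so the ratio is given as a description. There were 0.342 and 0.338 *ppk30* counts for each *ppk19* count in *Tj-Gal4*, and 1.84 and 1.35 in libraries labelled *Tj>E(Pc) shRNA*. *ppk19* was the more abundant of the pair in both controls and the less abundant in both labelled knockdown libraries. *Obp99a*, between them, held 361 and 421 counts, then 349 and 334 counts, and was not called.

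**Figure D5:**
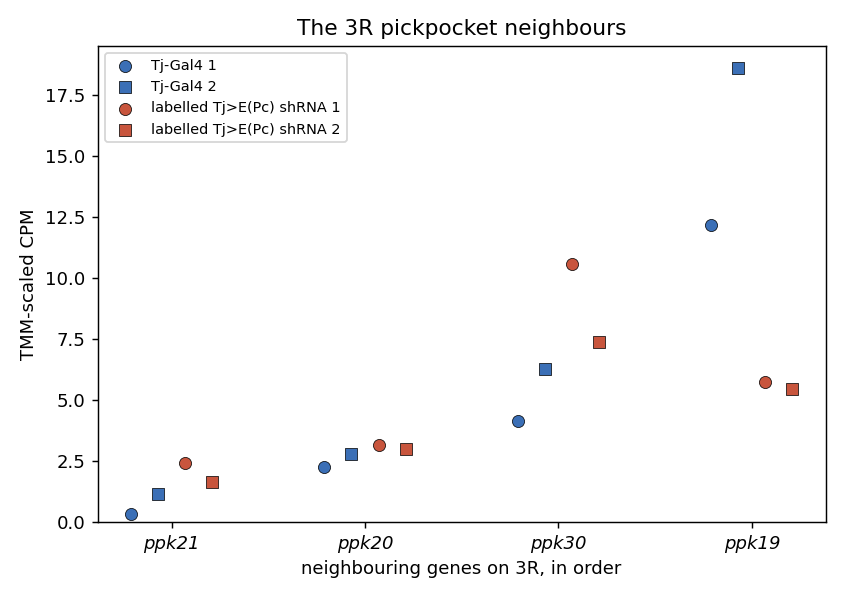
TMM-scaled CPM (vertical axis, from 0) of 4 neighbouring pickpocket genes on chromosome 3R, in their order on the chromosome, in each library (blue, *Tj-Gal4*, red, labelled *Tj>E(Pc) shRNA*, circles, replicate 1, squares, replicate 2). *ppk19* is at 12.2 and 18.6 CPM in *Tj-Gal4* and at 5.74 and 5.48 CPM in the other libraries, while the red points of *ppk21*, *ppk20* and *ppk30* lie above the blue ones.

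Of the detected members that did not pass the filter, *ppk9* held 0 and 2 counts in *Tj-Gal4*, against 10 and 6 in libraries labelled *Tj>E(Pc) shRNA*, a ratio of summed counts per effective library size of 5.78 (exact 95% interval 1.36 to 51.8). That of *ppk21* was 2.65 (1.04 to 7.98) and that of *ppk8*, with 5 and 2 counts, then 13 and 6 counts, was 1.96 (0.789 to 5.52). *ppk8* overlaps *CG2875*, which was called higher (log2 fold change 1.60, adjusted p = 0.00385 from edgeR). *ppk22* held 7 and 10 counts, then 12 and 2 counts, with a ratio of 0.595 (0.271 to 1.28), and the ratio of *ppk11* was 0.807 (0.397 to 1.65). These ratios set pooled reads of 2 libraries against 2 and say nothing about the spread between testes. *ppk8*, *ppk9* and *ppk21* were detected only where the label was *Tj>E(Pc) shRNA*, and *ppk11* and *ppk22* only in *Tj-Gal4*. The rule that picked these genes thus favoured the direction of each ratio, so the intervals are no evidence of a difference.

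Other channel and sodium transport genes were read in 4 lists written from general knowledge, with 33 of 41 names in the table and 28 genes tested. The test called 6 of these higher and 2 lower, against a background of 22.5% and 11.4%. Among TRP channels, of which 8 were tested, the photoreceptor channel gene *trp* (log2 fold change -2.23, adjusted p = 0.0041 from edgeR) and the humidity-sensing channel gene *wtrw* (-1.30, adjusted p = 0.00148) were called lower and none higher. The median of the 8 was -0.55. *Pkd2*, a cation channel gene of the sperm tail, held 738 and 982 counts, then 1606 and 872 counts, with a log2 fold change of 0.05 (SE 0.16).

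Of 4 other mechanosensory genes tested, 3 were called higher. These were *subdued*, an anoctamin chloride channel gene (log2 fold change 1.53, adjusted p = 2.95e-04 from edgeR), *stum* (1.34, adjusted p = 0.0225), which acts in proprioceptive neurons, and *Tmem63* (0.50, adjusted p = 0.0184), a gene of a stretch-gated cation channel family. In the list of voltage-gated sodium channel genes and partners, only *sei*, itself a potassium channel gene, was called of 5 tested. Of 11 sodium pump and transporter genes tested, the sodium-proton exchanger gene *Nhe3* (0.77, adjusted p = 0.00184) and the potassium-chloride cotransporter gene *kcc* (0.74, adjusted p = 0.00506) were called higher. *Atpalpha*, the catalytic subunit of the sodium pump, was not called (-0.08, SE 0.16).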

How the data were processed

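Of 8 samples, the 4 RNA-seq libraries were analysed, grouped by their labels. By the study's methods, the authors aligned 50-nt single-end reads with Bowtie 0.12.7 to dm3, allowing 2 mismatches and keeping reads with only 1 alignment site, and assigned them to merged exons. They deposited counts per gene without normalization, and cRPKM, an RPKM made from edgeR pseudo-counts over transcript length and a common library size. A read over overlapping genes is stated to count 0.5 for each, although the deposited counts are whole. Gene length comes with the counts.

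Here, edgeR 4.0.16 in R 4.3.3 was used: filterByExpr by genotype (11163 of 14256 genes), TMM factors, quasi-likelihood F test, Benjamini-Hochberg adjustment over all genes tested. A standard error is the log2 fold change divided by the square root of F. CPM are TMM-scaled. The fits were also run on simulated counts. These lacked the change of replicate ratio with coverage, so that run is no check of the fits on this point. Alternatives used DESeq2 1.42.0, limma 3.58.1 on log2(cRPKM + 1) or log2(cRPKM + 0.1), other scaling, filters and thresholds, a replicate block, removal of a loess trend on library depth, and each library left out. A crossed block and conversion of occupied positions to reads were added after the data were seen. The conversion assumes that the counts are of occupied positions, which is not stated for RNA-seq. Members, lists and tests were chosen with earlier results of these data known. All members were named, with counts in each library for those described. Overlapping and neighbouring genes were taken from RefSeq annotation of Release 6, for names and order only, while the files use dm3. Nothing says that the libraries of a genotype came from separate crosses, so p-values measure the spread between these libraries.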

Additional observations from a re-analysis of the deposited data

How the results depend on the processing

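Of 219 values of tested members under alternatives, 192 kept their direction and their side of the threshold, 10 lost a call, 12 gained one and 5 changed direction. The 5 were all in members of low counts that were never called: *ppk3* with the depth trend removed (log2 fold change -0.061), and *ppk3* (-0.48 to 0.57), *ppk5* (-0.60 to 0.024) and *ppk16* (-0.54 to 0.20) with each library left out. The cause was not tested.

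The 1 member called higher, *ppk29*, became 0 with at least 10 counts in every library, a filter that removes the gene, 3 at an adjusted p under 0.1 or an unadjusted p under 0.05, and 0 to 3 with each library left out. The 2 members called lower became 1 with DESeq2, upper-quartile normalization, library size alone, either limma fit and at least 2-fold change, 4 with the depth trend removed, occupied positions converted to reads, an adjusted p under 0.1 or an unadjusted p under 0.05, and 0 to 3 with each library left out, a fit in which the lone library is assumed to vary like the others. Without *Tj-Gal4* replicate 2 the calls of *ppk29*, *ppk19* and *ppk* were lost (log2 fold changes 1.78, -1.11 and -0.82). Fewer of all genes were called in that fit too, in both directions, so the loss is not particular to these members.

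In the other channel and transport lists, 6 genes called higher became 3 to 10 with each library left out. The 2 called lower became 6 with edgeR's exact test and with conversion to reads, 4 without a filter and with either limma fit, 8 with the depth trend removed, and 2 to 6 with each library left out. Of all genes, DESeq2 called 1453 higher and 724 lower, and upper-quartile normalization 2393 and 1563. Library size alone called 2623 and 929, and conversion to reads 3035 and 2209. The limma fits on log2(cRPKM + 1) and log2(cRPKM + 0.1) called 2683 and 1259, and 2627 and 1155.

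The 19 members detected became 24 with at least 1 count and 13 with at least 10 counts in both libraries of a genotype, 13 with more than 3 counts in every library, and 19 to 21 with each library left out. Replicate numbers are not stated to pair libraries. With a replicate block, 1 member was called higher and 1 lower, against 2107 and 888 of all 11163 genes tested. Deviations of same-numbered libraries correlated at -0.25 across 11163 genes. A crossed replicate block gave 4 members higher and 4 lower, and 7 of the other lists higher and 8 lower. Over all genes tested it called 3190 higher and 3014 lower, also more than the main fit. The added calls are thus not particular to the family. Depth limits the members at or under 3 counts, for which no level can be given.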
